A study of Mus musculus with 24 samples.

Results

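Genes for ion channels and for receptors of neurotransmitters and related small messengers were followed in sorted mouse skin cells. The 73 members were chosen by the opening letters of their symbols (Kcn, Cacn, Scn, Scnn, Clcn, Clca, Clic, Ano, Chrn, Chrm, Gabr, Gri, Glr, P2r, Trp before a, c, m or v, Ryr, Itpr, Hcn, Aqp, Adr, Htr, Hrh, Ptger, Ednr) among the 4561 genes that carry a single symbol in the authors' deposited tables of regulated genes. Folds and calls played no part in the choice, but a gene has a name here only where the authors listed it as regulated in some comparison, so a count of called members is not independent evidence of change and is read against the same share of all named genes. By family there were 16 potassium channel genes, 11 calcium and sodium channel genes, 9 chloride channel genes, 13 genes of neurotransmitter-gated channels, 14 of metabotropic receptors, 8 of TRP and intracellular release channels and 2 aquaporins. Symbols alone put some other proteins in these families. Adrbk2 (now Grk3) encodes a kinase that desensitises receptors, Grina is related to a receptor subunit by name only, and Kcnab3, Kcne4, Cacnb3, Cacna2d2, Cacna2d3 and Scn4b are auxiliary subunits that carry no current by themselves. The files use old names for the calcium-activated chloride channel regulators: Clca1, Clca2 and Clca5 here are Clca3a1, Clca3a2 and Clca2 in the current mouse nomenclature. Clca1 and Clca2 are near-identical copies, and their probe sets may read both.

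The question named by the series is what epidermal beta-catenin activity does to the dermis. From the back skin of C57BL/6 CBA mixed background mice, fibroblasts of the dermis were sorted as GFP+ cells, and keratinocytes of the epidermis as ItgA6+ cells, in 4 states. These were neonatal wild type, D2 after transient activation (anagen), D2 after sustained activation (ectopic follicles) and wild type in telogen, the resting phase of the hair cycle. As background, D2 is a transgenic line in which the keratin 14 promoter drives an inducible, stabilised beta-catenin in basal keratinocytes. The labels give neither the transgene nor the GFP allele, and no age beyond the word neonatal. Each of the 8 groups had 3 arrays, 24 in all, labelled as separate mice within a group, and 3 arrays limit the precision of every estimate. By the mouse numbers in the labels, 11 dermal arrays share their mouse with an epidermal array of the same state. D2 differs from wild type telogen in genotype and in activation, and these cannot be told apart.

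Ion channels set the membrane potential of a cell and let calcium, the most widely used internal messenger, enter it or leave internal stores. Metabotropic receptors act through G proteins, which change cyclic AMP or release stored calcium. In skin these proteins are known from nerve endings, vessels, pigment cells and immune cells, but also from keratinocytes, where calcium and water transport accompany differentiation, and from fibroblasts, which respond to endothelin, nucleotides and prostaglandins.

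Levels are in log2 units as deposited. Array medians lay between 4.34 and 5.5 and the 5th percentiles of the arrays between -0.96 and 1.44, so a level under 3 is called weak, and the size of a difference that starts from one is imprecise. Only 22 members had group means of at least 3 in all 8 groups. The fibroblast list of 5 named genes was higher in dermis in 5 of 5, and the keratinocyte list was lower in 5 of 5. In sustained dermis, however, 3 of 5 keratinocyte genes were higher than in telogen dermis (summed level 10.4 to 11.03 against 8.94 to 9.71), and in neonatal epidermis 3 of 5 fibroblast genes were higher than in telogen epidermis (12.43 to 12.75 against 10.68 to 11.25). Of the fibroblast list 2 of 5 genes were lower, and none higher, in sustained than in telogen dermis (summed level 13.7 to 13.88 against 14.18 to 14.39). Fewer cells of a type and less RNA per cell cannot be told apart in such sorted pools.

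Of the 73 members 44 were called in at least 1 of 7 comparisons of states (limma, Benjamini-Hochberg adjusted p under 0.05 over 45037 probe sets), 31 of them only among the dermal comparisons, 9 only among the epidermal ones and 4 among both. Dermis was compared in 4 ways and epidermis in 3, so these counts do not weigh the sorts equally. Such combined counts were not made over all probe sets or all named genes, so they only describe the members. Between the sorts 45 members were called, and 12 members were called nowhere.

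**Figure D1:**
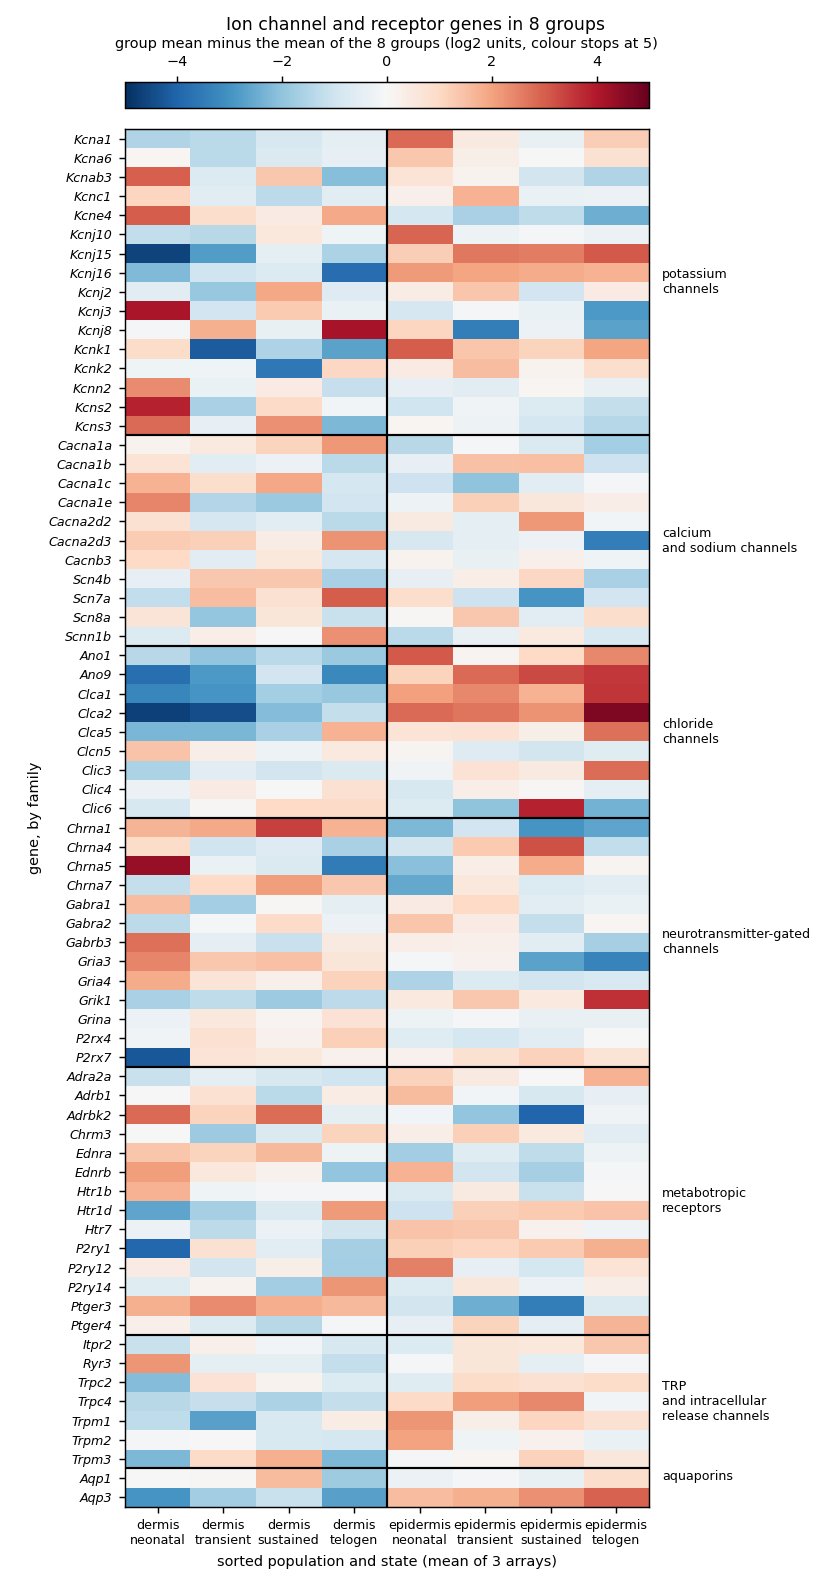
Each row is a gene, with 1 of the 73 members not shown, and each column 1 of the 8 groups (neonatal, transient, sustained and telogen dermis, then the same states of epidermis). Colour gives the group mean of 3 arrays minus the mean of the 8 groups in log2 units. Ano9, Clca1, Clca2 and Aqp3 are high in all 4 epidermal groups, and Kcnj8 is highest in telogen dermis.

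Many of these genes differed in level between the sorted populations. Between dermis and epidermis, with the 4 states weighted equally, 45 members were called, which is 61.6% of them, against 40.5% of all probe sets and 70.7% of the named genes. Of these, 20 were higher in dermis and 25 lower, beside 34.2% and 36.5% of the named genes. The median member stood at -0.36 log2 units (dermis minus epidermis), beside -0.26 for all probe sets. In 8 members no dermal array overlapped with an epidermal one, which held for 4.99% of all probe sets.

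Higher in the dermal sort were a muscle-type receptor subunit, a prostaglandin receptor and a potassium channel partner. Chrna1, the ligand-binding subunit of the muscle acetylcholine receptor, ranged from 4.53 to 7.2 with a median of 5.28 in the 12 dermal arrays, and from -0.33 to 3.67 with a median of 1.06 in the 12 epidermal arrays (4.37 ± 0.32, limma standard error after the sign ±, adjusted p = 2.41e-09). For Ptger3, a prostaglandin E2 receptor that lowers cyclic AMP, the dermal arrays lay between 7.65 and 9.34 (median 8.25) and the epidermal arrays between 2.27 and 6.16 (median 5.16), a difference of 3.79 ± 0.3 (adjusted p = 7.11e-09). Kcne4, an inhibitory partner of voltage-gated potassium channels, lay between 5.92 and 9.41 in dermis (median 7.58) and between 3.02 and 5.59 in epidermis (median 4.62), with 3.11 ± 0.23 between them (adjusted p = 3.46e-09). These 3 genes separated the sorts in every state. Of the 5 named pericyte and smooth muscle genes 2 were higher in dermis and 1 lower. Des, a muscle gene among the higher ones, differed by 3.6 ± 0.44 (adjusted p = 2.04e-06). The part of muscle cells in the level of Chrna1 was not tested. Higher in dermis with some overlap were the AMPA glutamate receptor subunits Gria3 (2.92 ± 0.32) and Gria4 (1.94 ± 0.29), the endothelin receptor Ednra (1.93 ± 0.21), the ATP-sensitive inward rectifier Kcnj8 (2.7 ± 0.31) and the pore-forming calcium channel subunits Cacna1a (1.96 ± 0.2) and Cacna1c (1.83 ± 0.3). The auxiliary calcium channel subunit Cacna2d3 averaged 2.52 ± 0.29 higher (adjusted p = 1.02e-06), and Clcn5, an endosomal chloride transporter, 1.02 ± 0.18 (adjusted p = 0.00013).

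Most of the chloride channel genes and the water and glycerol channel Aqp3 were higher in the epidermal sort. Of 9 chloride channel genes 6 were lower in dermis and 2 higher. Clca2, a regulator of calcium-activated chloride current, ranged from -0.46 to 5.68 in dermis (median 2.82) and from 8.01 to 10.89 in epidermis (median 8.76), a difference of -6.23 ± 0.35 (adjusted p = 5.93e-11). Its copy Clca1 lay between 1.55 and 4.46 in dermis (median 3.14) and between 7.21 and 9.31 in epidermis (median 7.82; -4.9 ± 0.21, adjusted p = 1.46e-12). Ano9, a member of the anoctamin family of calcium-activated channels and scramblases, reached 1.25 to 5.84 in dermis (median 2.88) and 6.74 to 9.56 in epidermis (median 9.0; -5.39 ± 0.26, adjusted p = 9.7e-12). Each of the 3 sat above the range of dermis in all 12 epidermal arrays. Aqp3 lay between 3.88 and 6.85 in dermis (median 5.58) and between 8.70 and 11.15 in epidermis (median 9.88; -4.27 ± 0.25, adjusted p = 9.22e-11). The inward rectifier Kcnj15 was weak in dermis, with -2.50 to 3.34 and a median of 1.80, against 4.19 to 6.58 and a median of 6.02 in epidermis (-4.75 ± 0.44, adjusted p = 6.37e-08). The inward rectifier Kcnj16 (-3.85 ± 0.49) and the 2-pore potassium channel Kcnk1 (-3.75 ± 0.49) were lower in dermis too, though their ranges overlapped. So were the nucleotide receptor P2ry1 (-2.67 ± 0.38, adjusted p = 1.44e-05), the kainate receptor subunit Grik1 (-3 ± 0.76, adjusted p = 0.00381) and the calcium channel auxiliary subunit Cacna2d2 (-0.99 ± 0.3, adjusted p = 0.0127). Centred on array medians, Cacna2d2 stood at -0.7 and was not called.

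By family, with no test of a difference between families, the calls were as follows. Among calcium and sodium channel genes 5 were higher in dermis and 1 lower, of 11. Among neurotransmitter-gated channels 6 were higher and 2 lower, of 13. Of 8 TRP and intracellular release channels 4 were lower and none higher (Itpr2, Trpc2, Trpc4 and Trpm1). The epidermal sort also carried more of other cells' markers: lower in dermis were 2 of 3 macrophage, 3 of 3 dendritic, 2 of 2 T cell, 4 of 5 Schwann and glial and 2 of 3 melanocyte genes. The summed glial level was 7.26 to 9.84 in dermis and 7.86 to 10.76 in epidermis, and the summed macrophage level 4.19 to 9.64 and 7.0 to 10.97. Their part in the members lower in dermis, such as the melanocyte channel Trpm1 and the platelet receptor P2ry1, was not tested.

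**Figure D2:**
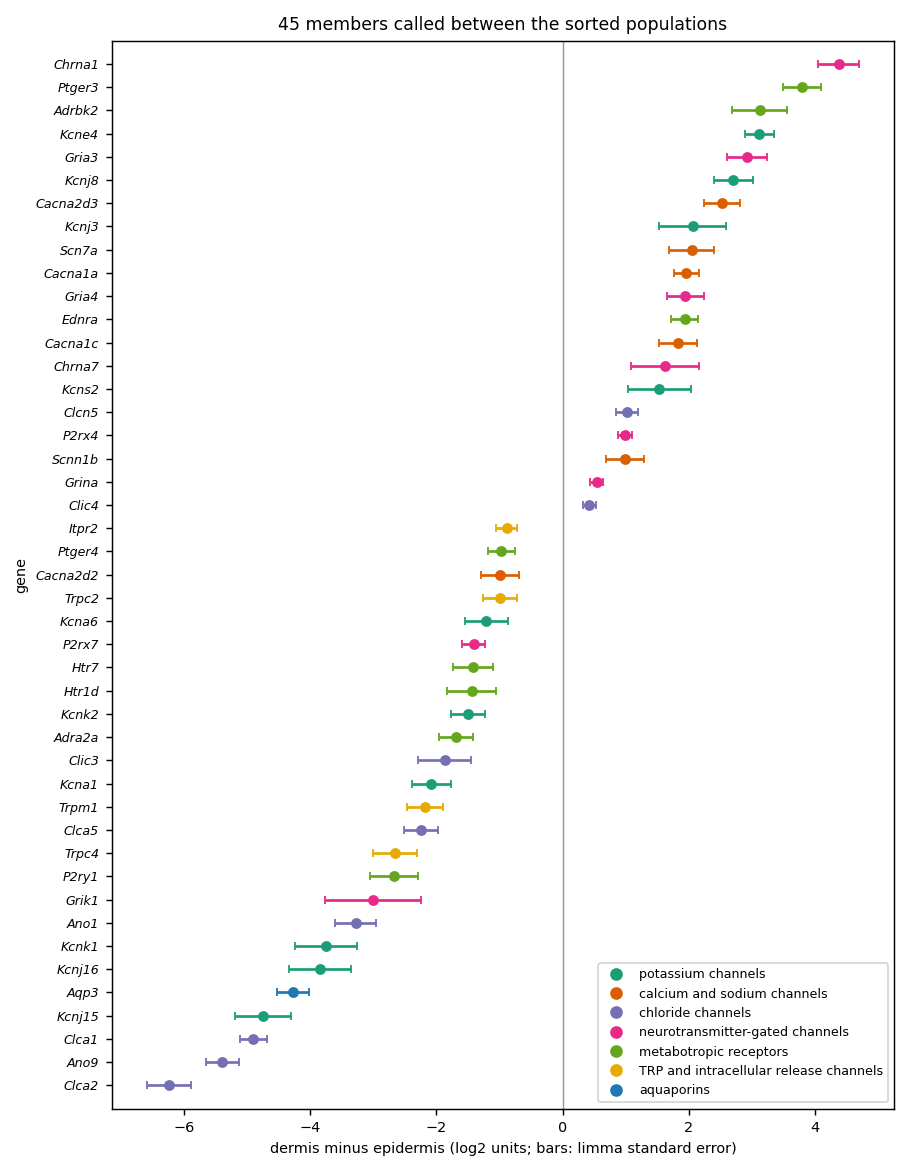
Points are the differences dermis minus epidermis in log2 units of the 45 called members, bars the limma standard errors and colours the families. Chrna1 lies at 4.37 at the top and Clca2 at -6.23 at the bottom, and 6 of the 8 called chloride channel genes lie left of 0.

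Within the dermis the states were compared with telogen. Between neonatal and telogen dermis 29 members were called (39.7%, against 13.3% of all probe sets and 51.7% of the named genes), 15 higher and 14 lower, beside 23.4% and 28.2% of the named genes. Between transient and telogen dermis 4 were called (5.48%, against 0.488% and 1.86%), 2 higher and 2 lower (1.43% and 0.439% of the named genes). Between sustained and telogen dermis 22 were called (30.1%, against 11.0% and 37.3%), 11 higher and 11 lower (18.1% and 19.2% of the named genes), and with the arrays centred on their medians 8 higher and 15 lower. The median of all probe sets was itself shifted by 0.42 between sustained and telogen dermis, and the median member by 0.49. The 3 comparisons share the telogen arrays. Side by side, 8 members were higher in both neonatal and sustained dermis and 8 lower in both, and none was called in opposite directions. Because of the shared arrays these are not independent, and the same overlap was not counted over the named genes.

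Of the 16 potassium channel genes 5 rose and 1 fell in neonatal dermis, and 2 rose and 3 fell in sustained dermis. Kcnj8, the pore of ATP-sensitive potassium channels and a gene known from pericytes and smooth muscle, was at 5.3, 6.56 and 6.98 in neonatal, 8.46, 8.98 and 7.06 in transient, 5.24, 6.87 and 6.03 in sustained and 10.41, 10.15 and 10.93 in telogen dermis. The telogen arrays exceeded all the others. It fell by 4.22 ± 0.61 in neonatal (adjusted p = 0.0019) and by 4.45 ± 0.61 in sustained dermis (adjusted p = 0.00262), and the transient difference of -2.33 ± 0.61 was not called (adjusted p = 0.138). In the authors' deposited table the 2 called falls are 13.2-fold and 20.3-fold. Beside Kcnj8, the endothelial list of 2 named genes (Tek, Kdr) had a summed level of 5.12 to 5.79 in neonatal, 3.43 to 5.99 in sustained and 8.54 to 9.06 in telogen dermis. Of these 2, Tek was called lower in neonatal dermis and both in sustained dermis. The 5 named pericyte and smooth muscle genes had summed levels of 9.42 to 9.9, 9.45 to 9.72 and 7.95 to 9.4 in the same groups. Of them Cspg4, Acta2 and Tagln were called higher in neonatal dermis, and in sustained dermis Cspg4 and Tagln were higher and Des was lower (2.18 in sustained and 6.84 in telogen dermis on average, adjusted p = 0.0184). The pericyte marker Rgs5 averaged 4.46, 5.01 and 5.57 in neonatal, sustained and telogen dermis and was not called. The part of vessel cells in the fall of Kcnj8 was not tested.

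Kcnk2, a mechanosensitive 2-pore channel that sets the resting potential, was called in sustained dermis and in neither of the other comparisons with telogen (-1.26 ± 0.66 in neonatal and -1.25 ± 0.66 in transient dermis). Its levels were 6.63, 6.55 and 6.77 in neonatal, 7.57, 6.47 and 5.92 in transient, 1.72, 3.82 and 4.38 in sustained and 7.27, 8.37 and 8.1 in telogen dermis. No sustained array reached the level of any other dermal array. Its difference was -4.61 ± 0.66 against telogen (adjusted p = 0.0031) and -3.35 ± 0.66 against transient dermis (adjusted p = 0.0347). The second call was lost without any 1 of 4 arrays (transient replicates 2 and 3, sustained replicates 2 and 3, -3.61 to -2.56). Kcne4, at 8.89, 9.41 and 8.85 in neonatal, 5.92, 7.33 and 7.36 in transient, 6.39, 6.24 and 6.57 in sustained and 8.12, 7.81 and 7.79 in telogen dermis, fell in sustained dermis by 1.51 ± 0.37 (adjusted p = 0.0315). That call was lost without any 1 of the 6 arrays (-1.59 to -1.4).

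Several voltage-gated, inwardly rectifying and calcium-activated potassium channel genes were high in neonatal dermis. Kcnj3, a G-protein-gated inward rectifier, was at 6.48, 6.26 and 6.52 in neonatal, 1.88, 1.21 and 0.98 in transient, 3.64, 2.58 and 4.63 in sustained and 2.19, 2.23 and 1.58 in telogen dermis. It rose in neonatal against telogen dermis by 4.42 ± 0.47 (adjusted p = 0.000326), and in sustained against transient dermis by 2.26 ± 0.47 (adjusted p = 0.0411), a call lost without 5 of the 6 arrays (all but sustained replicate 3, 1.75 to 2.52). Kcnn2, a small-conductance calcium-activated channel, was at 5.9, 6.57 and 5.67 in neonatal and 1.23, 3.14 and 3.28 in telogen dermis (3.49 ± 0.49, adjusted p = 0.00156). Kcns2, a silent modifier of voltage-gated channels, was at 7.44, 6.3 and 5.9 in neonatal and 3.35, 1.67 and 2.67 in telogen dermis (3.99 ± 0.73, adjusted p = 0.0065). All 3 separated the neonatal arrays from telogen. Kcns3, of the same silent group, was weak in telogen: 3.6, 3.15 and 4.36 in neonatal, 4.44, 1.42 and 3.65 in sustained and -0.68, -1.75 and -1.66 in telogen dermis. Its called differences of 5.07 ± 0.86 and 4.53 ± 0.86 (adjusted p = 0.00452 and 0.0109) start from levels near the array floor, and the authors' deposited table gives 2.72-fold and 2.15-fold. The same holds for the auxiliary subunit Kcnab3, at 5.26, 2.8 and 4.91 in neonatal, 3.33, 3.01 and 1.62 in sustained and -0.39, -0.73 and -1.31 in telogen dermis. It was called in neonatal dermis (adjusted p = 0.00257; 3.15-fold in the authors' deposited table). In sustained dermis both means were under 3 and no size is given (adjusted p = 0.0228), and the call was lost without telogen replicate 4, sustained replicate 2 or sustained replicate 3.

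Some large differences were not called. Kcnj2, an inward rectifier, was at 7.08, 7.3 and 6.92 in sustained, 0.57, 5.75 and 3.5 in transient and 4.69, 4.52 and 4.41 in telogen dermis. The sustained arrays lay above both other groups, but the spread of the transient arrays left the differences at 3.83 ± 1 against transient (adjusted p = 0.0847) and 2.56 ± 1 against telogen dermis (adjusted p = 0.128). Kcnk1 gave 3.62 ± 1.22 between neonatal and telogen (adjusted p = 0.0828) and 2.62 ± 1.22 between sustained and transient dermis (adjusted p = 0.296). Weak in both groups were Kcnj15 between neonatal and telogen (adjusted p = 0.121) and Kcnj16 between sustained and telogen dermis (adjusted p = 0.137). Kcns3 differed by 2.71 ± 0.86 between sustained and transient dermis (adjusted p = 0.141).

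The L-type calcium channel subunits Cacna1c and Cacnb3 rose in neonatal and sustained dermis, while Cacna1a and 2 sodium channel genes were highest in telogen. Cacna1c, the pore of the L-type calcium channel, was at 6.81, 7.1 and 6.61 in neonatal, 4.88, 6.25 and 6.76 in transient, 6.82, 7.27 and 7.04 in sustained and 4.72, 3.93 and 4.1 in telogen dermis. No array of the other groups fell into the telogen range. It was 2.59 ± 0.44 higher in neonatal (adjusted p = 0.00443) and 2.8 ± 0.44 higher in sustained dermis (adjusted p = 0.00468). The transient difference of 1.72 ± 0.44 was not called (adjusted p = 0.131). Its cytoplasmic partner Cacnb3 rose by 1.82 ± 0.32 and 1.37 ± 0.32 in the same 2 groups (adjusted p = 0.00525 and 0.0251). Cacna1a, the pore of the P/Q-type channel, went the other way, with 7.01, 6.96 and 6.49 in neonatal, 7.33, 7.28 and 6.84 in transient, 7.98, 7.7 and 7.57 in sustained and 8.89, 8.32 and 9.18 in telogen dermis. It fell by 1.98 ± 0.28, 1.64 ± 0.28 and 1.04 ± 0.28 (adjusted p = 0.00175, 0.043 and 0.043). The transient call was lost without 5 of the 6 arrays (all but telogen replicate 3, -1.73 to -1.45). Of its 3 other probe sets 1 was called lower in neonatal dermis and none in the other comparisons.

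The sodium channels Scn7a and Scnn1b were highest in telogen dermis. Scn7a, a sodium-sensing channel known from glia, was at 4.27, 3.28 and 2.72 in neonatal, 6.95, 6.68 and 4.94 in transient, 5.6, 6.33 and 4.34 in sustained and 7.75, 7.23 and 8.02 in telogen dermis. The neonatal fall of 4.24 ± 0.66 was called (adjusted p = 0.00266) and the sustained difference of -2.24 ± 0.66 was not (adjusted p = 0.0559). Its 2 other probe sets were called lower in neonatal dermis (-6.39 and -4.93, adjusted p = 0.0135 and 0.00518). In sustained dermis they stood at -3.55 and -3.13 (adjusted p = 0.122 and 0.0465), the second called. Of 5 named Schwann and glial genes Ngfr was higher in neonatal dermis, with summed levels of 7.54 to 7.87 against 7.26 to 7.76, and in sustained dermis Ngfr was again higher, with 9.68 to 9.84. Scnn1b, a subunit of the epithelial sodium channel, was at 5.25, 5.32 and 4.26 in neonatal, 5.58, 6.38 and 5.91 in transient, 5.2, 5.78 and 5.89 in sustained and 8.31, 7.53 and 7.91 in telogen dermis. It fell by 2.97 ± 0.37 in neonatal (adjusted p = 0.000783) and by 2.29 ± 0.37 in sustained dermis (adjusted p = 0.00518), and stood at -1.96 ± 0.37 in transient dermis (adjusted p = 0.0584).

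Cacna2d3 was at 4.8, 4.08 and 4.52 in sustained and 6.26, 6.33 and 6.44 in telogen dermis (-1.88 ± 0.26, adjusted p = 0.00258), and in neonatal dermis it fell by 0.96 ± 0.26 (adjusted p = 0.0349). Scn4b, a sodium channel beta subunit, was at 6.09, 5.02 and 6.58 in sustained and 2.08, 2.8 and 3.92 in telogen dermis (2.96 ± 0.61, adjusted p = 0.0148). That call was lost without sustained replicate 2 or 5 (2.62 to 2.87). Cacna1e, at 4.6, 4.96 and 4.48 in neonatal and 0.3, 3.84 and -0.26 in telogen dermis, was not called (3.39 ± 1, adjusted p = 0.0517). Of the 11 genes of the family 2 rose and 4 fell in neonatal dermis, and 3 rose and 3 fell in sustained dermis.

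Against telogen, chloride channel genes fell in dermis wherever they were called. Clca5 was at 1.75, 2.5 and 3.09 in neonatal, 1.41, 2.69 and 3.28 in transient, 2.77, 3.12 and 3.48 in sustained and 6.62, 6.68 and 6.19 in telogen dermis. The telogen arrays stood apart from the other 9. Its differences from telogen were -4.05 ± 0.49, -4.04 ± 0.49 and -3.37 ± 0.49 (adjusted p = 0.000672, 0.012 and 0.00325), and the transient call was lost without telogen replicate 2 (-3.98). In the authors' deposited table the 3 falls are 22.8-fold, 18.5-fold and 21.7-fold. Clca2 was at 0.32, 1.57 and 2.04 in neonatal and 5.68, 5.03 and 3.72 in telogen dermis, a fall of 3.5 ± 0.88 (adjusted p = 0.0275) that was not called without neonatal replicate 1 or 2 or telogen replicate 2 or 3 (-3.63 to -3.01). In transient dermis, at 2.68, -0.46 and 2.49, it differed from telogen by -3.24 ± 0.88 and was not called (adjusted p = 0.15). The other probe set of Clca2 was called lower in neonatal and in transient dermis (-3.83 and -4.56, adjusted p = 0.00844 and 0.038). Between sustained and transient dermis that probe set was called higher (3.49, adjusted p = 0.0445). Clic4, an intracellular chloride channel protein that can also act in the cytoplasm and nucleus, fell by 1.04 ± 0.22 in neonatal (adjusted p = 0.0123) and by 0.78 ± 0.22 in sustained dermis (adjusted p = 0.0482). Of the 9 genes none rose and 3, 1 and 2 fell in neonatal, transient and sustained dermis.

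Among neurotransmitter-gated channels the ATP receptor P2rx7 stood apart. P2rx7, an ATP-gated cation channel known for inflammasome activation, was at 1.75, 3.28 and 2.8 in neonatal, 7.05, 7.59 and 7.88 in transient, 7.56, 7.51 and 7.05 in sustained and 6.96, 7.19 and 7.03 in telogen dermis. The neonatal arrays lay below all others in dermis, and the other 3 groups overlapped with each other. The neonatal fall was 4.45 ± 0.38 (adjusted p = 0.000113), called on its 2 other probe sets too. In sustained and transient dermis the differences from telogen were 0.31 ± 0.38 and 0.45 ± 0.38 (adjusted p = 0.629 and 0.635). P2rx4, a related ATP-gated channel, fell by 1.37 ± 0.25 in neonatal (adjusted p = 0.00631) and by 0.98 ± 0.25 in sustained dermis (adjusted p = 0.0354). The second was not called without telogen replicate 2 or 3 or sustained replicate 3 or 5 (-0.95 to -0.85), nor was either call shared by its 2 other probe sets. Both receptors are known from macrophages. Beside these values, the summed level of the 3 named macrophage genes was 4.19 to 5.67 in neonatal, 5.58 to 6.22 in sustained and 9.36 to 9.64 in telogen dermis, with 2 of the 3 called lower in neonatal and 1 in sustained dermis. Csf1r, the defining macrophage receptor, averaged 4.03 in neonatal, 7.85 in transient, 4.93 in sustained and 9.36 in telogen dermis, and was called lower in neonatal and sustained dermis. Lyz2, at 2.91, 4.79, 4.16 and 5.64 in the same order, was called lower in neonatal dermis. Mrc1, at 1.81, 2.71, 3.44 and 3.56, was not called. Their part in the values of P2rx7 and P2rx4 was not tested.

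Of the 13 neurotransmitter-gated channel genes 2 rose and 3 fell in neonatal dermis, and 1 rose and 1 fell in sustained dermis. Chrna5, an accessory nicotinic subunit, was at 5.35, 5.82 and 5.75 in neonatal, 0.15, 3.21 and -0.55 in transient, 1.67, -0.38 and 0.37 in sustained and -2.4, -1.48 and -2.72 in telogen dermis. In telogen it averaged less than the arrays' 5th percentile, so the called difference of 7.84 ± 0.88 (adjusted p = 0.000444) is a poor measure of size, and the authors' deposited table gives 11.4-fold. In sustained dermis its difference was not called (adjusted p = 0.0739). Gria3 was at 7.81, 7.53 and 7.31 in neonatal and 5.38, 5.41 and 6.27 in telogen dermis, and rose by 1.86 ± 0.29 (adjusted p = 0.00296), as did its other probe set. Chrna1 was at 7.2, 6.75 and 6.66 in sustained and 5.09, 5.53 and 5.02 in telogen dermis (1.66 ± 0.4, adjusted p = 0.0283). Without 5 of the 6 arrays (all but telogen replicate 3) the call was lost (1.49 to 1.76), and centred on array medians it was 1.15 and not called. Grina, a multispanning membrane protein, fell by 1.01 ± 0.21 in neonatal dermis (adjusted p = 0.0118). Chrna7, a nicotinic subunit that forms channels by itself, was not called in neonatal dermis (-2.56 ± 0.77, adjusted p = 0.0559). Gria4 was not called in any of these comparisons, but its other probe set, of weak signal, was called lower in sustained dermis (adjusted p = 0.0117).

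Both endothelin receptors rose in neonatal and in sustained dermis. Ednrb, which couples endothelins to calcium release and is known for guiding pigment cell precursors, was at 8.77, 8.26 and 8.61 in neonatal, 7.08, 6.68 and 7.3 in transient, 6.73, 7.02 and 6.34 in sustained and 5.38, 4.6 and 3.57 in telogen dermis. No telogen array reached any of the other 9. It rose by 4.03 ± 0.42, 2.5 ± 0.42 and 2.18 ± 0.42 (adjusted p = 0.0003, 0.0393 and 0.0114). The transient call was lost without 5 of the 6 arrays (all but telogen replicate 2, 2.03 to 2.67). Ednra was at 8.81, 8.6 and 8.88 in neonatal, 8.15, 8.34 and 9.01 in transient, 9.09, 9.08 and 8.93 in sustained and 6.59, 7.34 and 7.47 in telogen dermis. It rose by 1.63 ± 0.3 in neonatal and 1.9 ± 0.3 in sustained dermis (adjusted p = 0.00644 and 0.00471) and was 1.37 ± 0.3 higher in transient dermis, not called (adjusted p = 0.0874). The 2 other probe sets of each receptor were called in the same direction in neonatal and in sustained dermis. Ednrb is also a melanocyte gene, and of the 3 named melanocyte genes none was higher in neonatal or sustained dermis and 1 was lower in neonatal dermis (Mitf), with summed levels of 6.58 to 7.29, 7.42 to 7.77 and 7.66 to 8.55 in neonatal, sustained and telogen dermis. The part of melanocytes in the level of Ednrb was not tested.

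Among the other genes of this family Adrbk2 and Htr1b rose, and P2ry14, Htr1d and Adrb1 fell, in at least 1 dermal comparison. The receptor kinase gene Adrbk2 was at 9.2, 9.14 and 8.88 in neonatal, 6.65, 7.01 and 8.49 in transient, 9.03, 9.01 and 9.07 in sustained and 4.05, 6.35 and 6.91 in telogen dermis. It rose by 3.3 ± 0.69 in neonatal (adjusted p = 0.0118) and by 3.26 ± 0.69 in sustained dermis (adjusted p = 0.0166), the second not called without sustained replicate 2 or 5 (3.25 to 3.27). P2ry14, a receptor for UDP-sugars, was at 1.36, 0.35 and 2.7 in sustained and 5.47, 6 and 4.8 in telogen dermis (-3.96 ± 0.73, adjusted p = 0.00946), and in neonatal dermis it fell by 2.8 ± 0.73 (adjusted p = 0.0324). Htr1d, a serotonin receptor, was at 1.65, 0.72 and 3.91 in neonatal, 2.63, 4.13 and 2.41 in transient, 2.5, 4.57 and 4.89 in sustained and 6.47, 6.78 and 7.27 in telogen dermis. All telogen arrays lay above the rest, and the neonatal fall of 4.74 ± 0.87 was called (adjusted p = 0.00648), while the transient and sustained differences were -3.78 ± 0.87 and -2.85 ± 0.87 (adjusted p = 0.0996 and 0.0645). Its other probe set was called lower in neonatal (-5.2, adjusted p = 0.00483) and in sustained dermis (-5, adjusted p = 0.00849), and not in transient dermis (-4.8, adjusted p = 0.0581). The related Htr1b rose by 1.81 ± 0.41 in neonatal dermis (adjusted p = 0.0176). Adrb1, the beta-1 adrenergic receptor, was at 4.39, 3.99 and 4.2 in sustained, 7.05, 6.63 and 5.23 in transient and 5.82, 5.6 and 6.26 in telogen dermis. It fell by 1.7 ± 0.41 against telogen (adjusted p = 0.0295) and by 2.11 ± 0.41 against transient dermis (adjusted p = 0.0345), and each call was lost without 5 of the 6 arrays (-1.8 to -1.51 and -2.21 to -1.74; all but telogen replicate 3 and transient replicate 4).

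Of the calcium release and TRP channels Ryr3, a ryanodine receptor of the endoplasmic reticulum, was at 5.48, 5.32 and 4.75 in neonatal, 2.48, 2.36 and 2.69 in transient, 3.27, 2.29 and 1.87 in sustained and 1.15, 2.16 and 2.02 in telogen dermis, and only the neonatal group stood above the others (3.4 ± 0.4, adjusted p = 0.000584). Trpm3, a heat- and steroid-gated channel, was at 4.78, 4.83 and 6.33 in sustained, 3.98, 4.35 and 5.19 in transient and 3.33, -0.3 and 0.88 in telogen dermis. The sustained difference of 4.01 ± 1.07 was called (adjusted p = 0.0414), a call lost without 5 of the 6 arrays (all but telogen replicate 2, 3.21 to 4.28). The transient one of 3.2 ± 1.07 was not called (adjusted p = 0.229).

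The water channel Aqp1 rose in all 3 states against telogen dermis, as Ednrb did. It was at 7.92, 8.04 and 8.02 in neonatal, 7.43, 8.2 and 8.44 in transient, 9.71, 9.48 and 9.41 in sustained and 5.67, 6.74 and 6.1 in telogen dermis. The sustained arrays lay above every other dermal array, and the telogen arrays below. Against telogen the differences were 1.82 ± 0.33, 1.85 ± 0.33 and 3.36 ± 0.33 (adjusted p = 0.00598, 0.0488 and 0.00084), and sustained exceeded transient dermis by 1.51 ± 0.33 (adjusted p = 0.0479). The transient call was lost without telogen replicate 2 or 4 or transient replicate 3 or 4 (1.6 to 1.81). The sustained against transient call was lost without 5 of the 6 arrays (all but transient replicate 4, 1.22 to 1.6). In the authors' deposited table the sustained rise is 8.5-fold. Aqp1 is also known from endothelium, and of the 2 named endothelial genes Tek averaged 3.59 in neonatal, 7.22 in transient, 4.09 in sustained and 8.48 in telogen dermis, and Kdr 4.92, 5.01, 2.93 and 6.19. Their part in the level of Aqp1 was not tested. The 3 risen keratinocyte genes in sustained dermis (Krt5, Trp63, Itga6) and the 2 fibroblast genes that fell there stand beside all sustained results. None of the 11 members higher in sustained dermis was called lower in dermis than in epidermis (4 were called higher and 7 neither), and of the 11 that fell 7 were called higher in dermis, 2 lower and 2 neither. The comparison of the sorts includes the sustained dermal arrays, so these counts are not independent of the rises and falls. A rise there by itself moves a gene away from a lower call in dermis. The same split was not counted over the named genes, so these counts do not bear on the source of the rises and falls. The part of keratinocytes, or of a change in fibroblasts, in the sustained results was not tested.

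**Figure D3:**
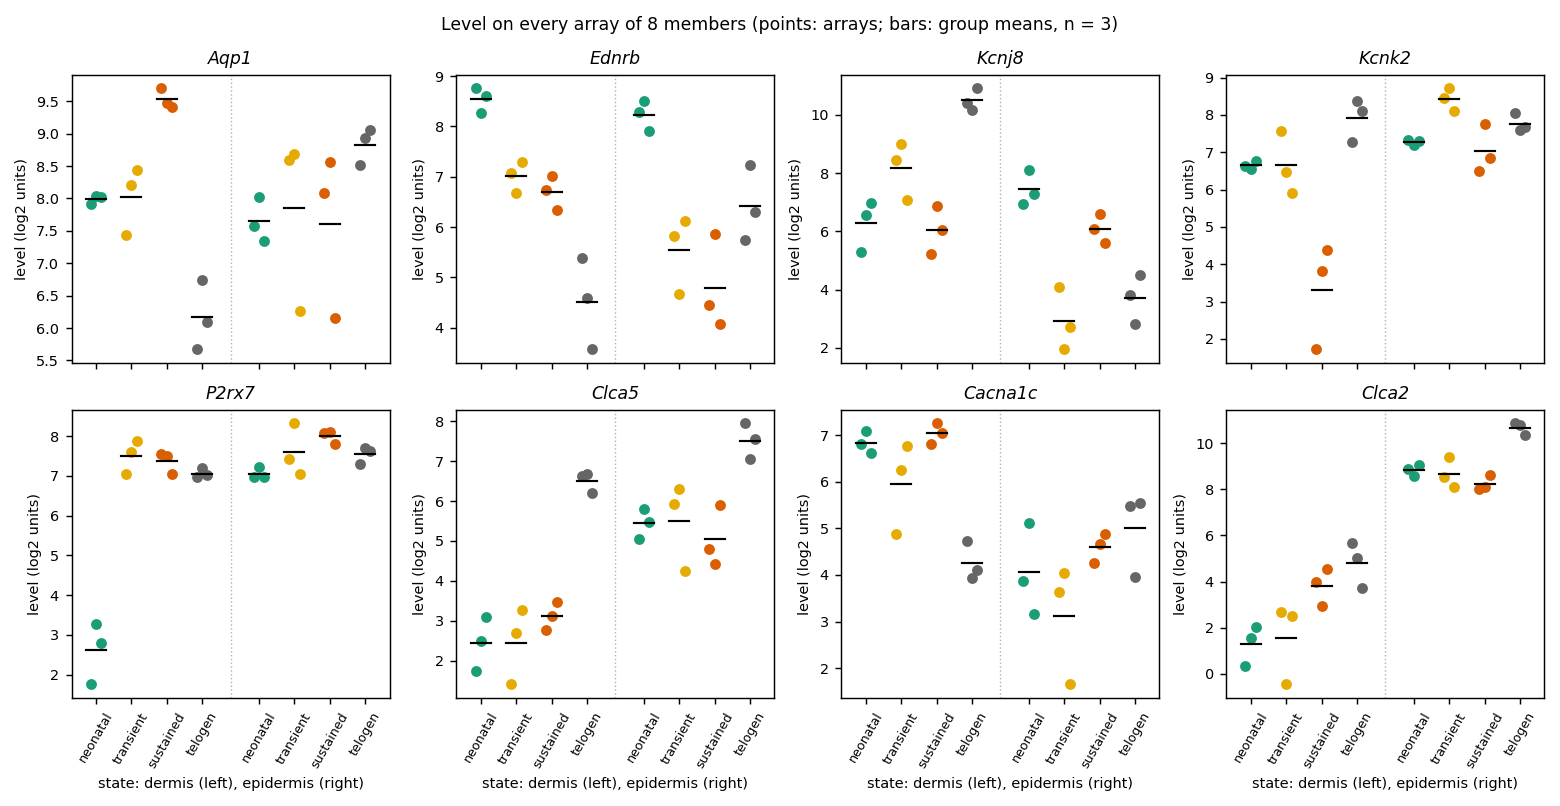
Each panel shows 1 gene, with the level in log2 units on the y axis, 3 arrays per group as points and group means as bars, dermis left and epidermis right. In dermis Aqp1 and Ednrb are lowest, and Kcnj8 and Clca5 highest, in telogen; Kcnk2 is low in sustained and P2rx7 in neonatal dermis only.

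Between sustained and transient dermis 4 members were called (5.48%, against 2.22% of all probe sets and 10.5% of the named genes): Aqp1 and Kcnj3 were higher, Kcnk2 and Adrb1 lower (4.41% and 6.05% of the named genes). With the arrays centred on their medians the 2 higher calls were lost and the 2 lower ones remained. Between transient and telogen dermis the higher calls of Aqp1 and Ednrb were lost with quantile normalization and with centring, and the lower call of Cacna1a was lost with quantile normalization. In sustained against telogen dermis Trpm3, Kcnab3 and P2rx4 were not called with quantile normalization, nor Trpm3 with centring.

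In epidermis fewer members were called. Between neonatal and telogen epidermis 10 were called (13.7%, against 6.99% of all probe sets and 29.1% of the named genes), 2 higher and 8 lower, beside 12.3% and 16.8% of the named genes. Centred on array medians the split was 3 higher and 6 lower. Transient epidermis gave 1 call (1.37%, against 0.844% and 3.79%), which was lower, where 2.81% of the named genes were higher and 0.987% lower. Sustained epidermis gave 6 (8.22%, against 1.15% and 6.27%), 3 higher and 3 lower, beside 3.05% and 3.22% of the named genes.

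Of the 9 chloride channel genes 4 fell in neonatal, 1 fell in transient, and 2 fell and 1 rose in sustained epidermis. Clca2 was at 8.89, 8.57 and 9.05 in neonatal, 8.52, 9.38 and 8.08 in transient, 8.01, 8.09 and 8.64 in sustained and 10.89, 10.77 and 10.37 in telogen epidermis. The telogen arrays exceeded all the others. Its falls were 1.84 ± 0.35, 2.02 ± 0.35 and 2.43 ± 0.35 (adjusted p = 0.0144, 0.0358 and 0.0136). Single arrays decided these calls: the neonatal one was lost without neonatal replicate 3 or telogen replicate 2 or 3 (-1.79 to -1.71), the transient one without any array but transient replicate 3 (-2.17 to -1.72) and the sustained one without telogen replicate 2 or 3 or sustained replicate 2 or 3 (-2.39 to -2.31). Clca1 was at 7.65, 7.47 and 7.97 in neonatal, 7.68, 8.2 and 8.24 in transient, 7.4, 7.21 and 7.49 in sustained and 9.31, 9.26 and 9.1 in telogen epidermis. It fell by 1.53 ± 0.24 in neonatal (adjusted p = 0.00632) and by 1.85 ± 0.24 in sustained epidermis (adjusted p = 0.0104), the second not called without telogen or sustained replicate 2 (-1.87 to -1.81). In transient epidermis it stood at -1.18 ± 0.24 (adjusted p = 0.0572). Ano9 was at 6.99, 6.74 and 7.25 in neonatal and 9.56, 9.46 and 9.23 in telogen epidermis, with the other 2 groups between 8.17 and 9.31 (-2.42 ± 0.3 in neonatal, adjusted p = 0.00217). Clic3, a chloride intracellular channel protein, was at 3.73, 2.28 and 2.01 in neonatal and 5.72, 5.36 and 5.86 in telogen epidermis (-2.97 ± 0.76, adjusted p = 0.0453), a call lost without any 1 of the 6 arrays (-3.5 to -2.64).

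One chloride channel gene rose. Clic6, known as a dopamine receptor partner, was at 6.01, 5.69 and 6.09 in sustained, 2.21, -1.84 and -0.11 in transient and -1.03, 1.74 and -1.59 in telogen epidermis. The sustained arrays lay above all other epidermal arrays, and the difference of 6.23 ± 1.19 starts from weak telogen levels (adjusted p = 0.0403; 10.2-fold in the authors' deposited table). It was not called without any 1 of the 6 arrays (5.58 to 7.24). The nicotinic subunit Chrna4 followed, with 5.9, 5.63 and 5.43 in sustained and -0.21, 1.24 and 2.63 in telogen epidermis (4.43 ± 0.71, adjusted p = 0.0221; 4.19-fold in the authors' deposited table), and was lost without 5 of the 6 arrays (all but telogen replicate 4, 3.72 to 4.55). Trpc4, a receptor-operated calcium channel, was at 5.97, 5.35 and 5.54 in sustained and 3.71, 3.16 and 2.38 in telogen epidermis (2.54 ± 0.45, adjusted p = 0.0324), and was lost without any 1 of the 6 (2.19 to 2.85).

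Of the 14 metabotropic receptor genes 2 fell in neonatal and 1 in sustained epidermis, and of the 8 TRP and release channel genes 1 fell in neonatal and 1 rose in sustained epidermis. Ptger4, the prostaglandin E2 receptor that raises cyclic AMP, was at 6.6, 6.43 and 7.32 in neonatal, 8.43, 8.2 and 8.26 in transient, 6.74, 7.14 and 6.35 in sustained and 9.17, 8.41 and 9.01 in telogen epidermis. It fell by 2.08 ± 0.32 in neonatal (adjusted p = 0.00619) and by 2.12 ± 0.32 in sustained epidermis (adjusted p = 0.0188). The sustained call was lost without telogen replicate 2 or 4 or sustained replicate 2 or 5 (-2.12 to -1.93). Itpr2, an inositol trisphosphate receptor that releases stored calcium, was at 6.38, 6.38 and 6.47 in neonatal and 8.21, 7.86 and 9.18 in telogen epidermis (-2.01 ± 0.36, adjusted p = 0.0102), and 2 of its 3 other probe sets were called lower too. Kcnj15 was at 5, 4.77 and 4.19 in neonatal and 6.58, 6.37 and 6.51 in telogen epidermis (-1.84 ± 0.29, adjusted p = 0.00649). Htr1d fell by 2.47 ± 0.59 in neonatal epidermis (adjusted p = 0.0351), a call lost without 5 of the 6 arrays (all but neonatal replicate 4, -2.57 to -1.87).

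Some immune cell markers were called lower in the same epidermal groups as these falls. In neonatal epidermis 2 of 2 T cell genes were called lower (Cd3e and Cd3g, summed level 2.52 to 3.74 in neonatal and 7.35 to 8 in telogen epidermis), 1 of 3 macrophage genes (Lyz2; 9.73 to 10.07 and 10.31 to 10.97) and none of 3 dendritic and Langerhans genes (9.74 to 10.26 and 11.31 to 11.62). In sustained epidermis 2 of 3 dendritic and Langerhans genes were called lower (H2-Ab1 and Cd74, summed level 7.54 to 8.23 in sustained epidermis), 1 of 3 macrophage genes (Lyz2; 7 to 7.59) and none of 2 T cell genes (3.77 to 5.24). Their part in the members that fell in epidermis was not tested.

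The 2 members higher in neonatal epidermis were genes higher in dermis than in epidermis. Kcnj8 was at 6.95, 8.1 and 7.29 in neonatal, 4.1, 1.95 and 2.72 in transient, 6.07, 6.59 and 5.6 in sustained and 3.81, 2.82 and 4.5 in telogen epidermis. It rose by 3.74 ± 0.6 (adjusted p = 0.00711; 10.1-fold in the authors' deposited table), and in sustained epidermis it was 2.38 ± 0.6 higher without a call (adjusted p = 0.115). Gria3 was at 4.92, 4.36 and 5.84 in neonatal and 1.96, 0.4 and 2.89 in telogen epidermis (3.29 ± 0.81, adjusted p = 0.0402), a call lost without 5 of the 6 arrays (all but telogen replicate 4, 2.61 to 3.63). In the same neonatal epidermal arrays 2 of 5 pericyte and smooth muscle genes were higher, with a summed level of 10.45 to 11.06 against 8.56 to 9.03 in telogen epidermis. The pericyte marker Rgs5 averaged 9.95 against 5.94, and the collagen gene Col1a2 11.17 against 9.8. Their part in these rises was not tested.

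With quantile normalization the neonatal calls of Gria3, Clic3 and Htr1d and the sustained call of Clic6 were lost. Large epidermal differences without a call were Kcnj10 (3.19 ± 1.1, adjusted p = 0.119), Grik1 (-3.16 ± 1.81, adjusted p = 0.354) and Cacna2d3 (2.67 ± 0.75, adjusted p = 0.0634) in neonatal, and Gria3 (3.57 ± 0.81, adjusted p = 0.0816) and Cacna2d3 (2.97 ± 0.75, adjusted p = 0.107) in transient epidermis, where Kcnj3 was weak in both groups (adjusted p = 0.302). In sustained epidermis they were Adrbk2 (-3.8 ± 0.96, adjusted p = 0.114), Grik1 (-3.18 ± 1.81, adjusted p = 0.509) and Cacna2d3 (3.17 ± 0.75, adjusted p = 0.0907).

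Whether a state changed a member differently in the 2 sorts was tested as an interaction over all 24 arrays. For neonatal against telogen skin 15 members were called (20.5%, against 5.67% of all probe sets and 24.6% of the named genes). For sustained against telogen skin 11 were called (15.1%, against 2.77% and 13.3%). For neonatal skin 8 interactions were positive and 7 negative, beside 11.4% and 13.3% of the named genes (4 and 8 with quantile normalization, 3 and 9 with centring). For sustained skin 4 were positive and 7 negative, beside 7.13% and 6.16% of the named genes (3 and 9 with centring).

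Kcnj8 moved in opposite directions in neonatal skin: it was lower in neonatal and in sustained dermis and called higher in neonatal epidermis, with interactions of -7.95 ± 0.89 (adjusted p = 3.45e-05) and -6.83 ± 0.89 (adjusted p = 0.000415). Cacna2d3 fell in sustained dermis and stood 3.17 higher in sustained epidermis, an interaction of -5.05 ± 0.82 (adjusted p = 0.00203), and -3.64 ± 0.82 for neonatal skin (adjusted p = 0.0121). Aqp1 rose in sustained dermis, while in epidermis it was at 8.08, 8.56 and 6.16 in sustained and 8.51, 8.93 and 9.05 in telogen arrays, and its interaction was 4.59 ± 0.82 (adjusted p = 0.00433). The endothelin receptors also had positive interactions for sustained skin, Ednrb of 3.81 ± 0.72 (adjusted p = 0.00626) and Ednra of 2.91 ± 0.6 (adjusted p = 0.0124). The 2 other probe sets of Ednrb gave 3.23 and 1.87 (adjusted p = 0.0426 and 0.06), the second not called. Their differences in sustained epidermis were -0.47 and 0.01, not called. Those of Ednra gave interactions of 2.81 and 2.99 (adjusted p = 0.0448 and 0.00463). Adrbk2 was at 2.42, 4.02 and 0.44 in sustained and 6.96, 5.55 and 5.78 in telogen epidermis, against its rise in dermis, for an interaction of 7.06 ± 1.23 (adjusted p = 0.00364). Its 2 other probe sets gave 4.6 and 2.49 (adjusted p = 0.000348 and 0.0136), with differences of -1.54 and 0.03 in sustained epidermis that were not called. The loss of Kcnk2 in sustained dermis was larger than its epidermal difference of -0.73 ± 0.33 by -3.88 ± 0.75 (adjusted p = 0.0077). P2rx7 in neonatal skin fell in dermis and was -0.49 ± 0.32 in epidermis (interaction -3.96 ± 0.5, adjusted p = 0.0001).

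**Figure D4:**
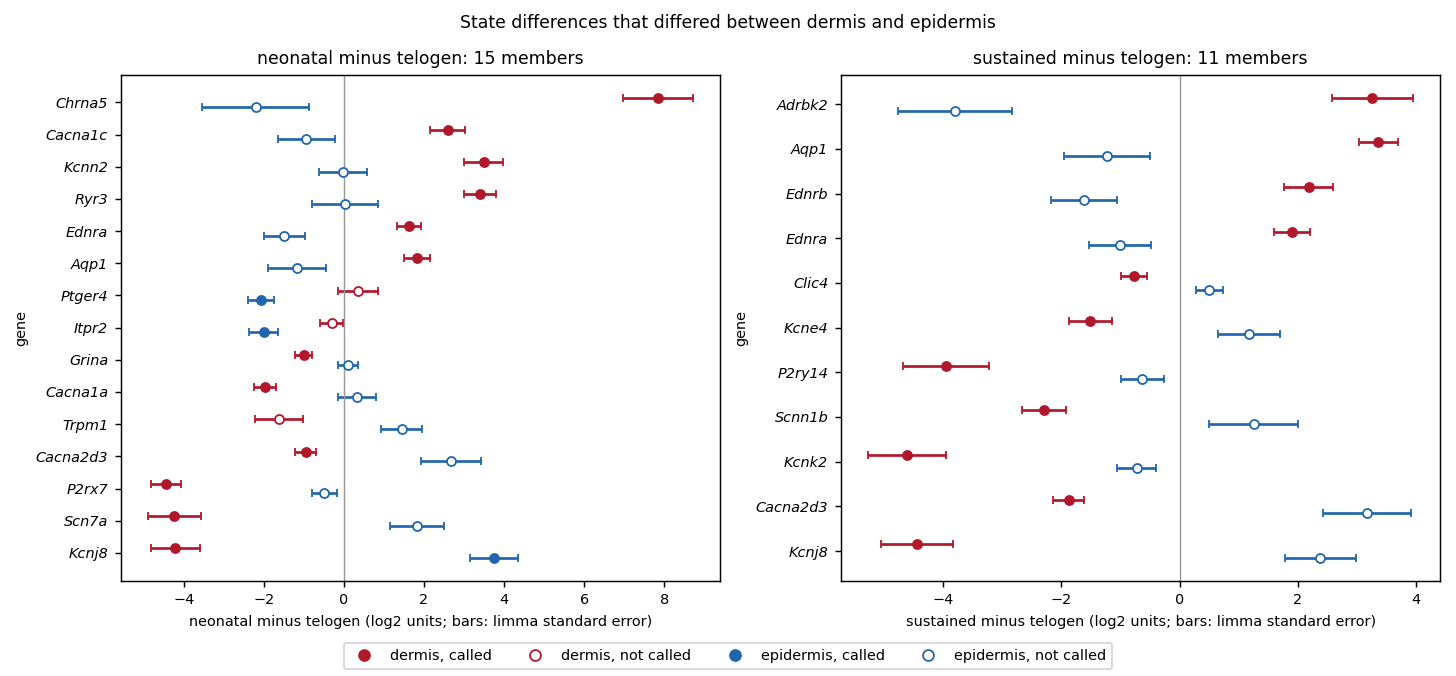
Points are the differences from telogen in log2 units in dermis (red) and epidermis (blue), filled where called, with limma standard errors, for the 15 members (neonatal, left) and 11 members (sustained, right) whose difference itself differed between the sorts. Kcnj8 lies left of 0 in dermis and right of 0 in epidermis in both panels.

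Genes that work with these channels and receptors were counted from lists of background knowledge. Of 17 named genes of ligand synthesis 2 were higher and 6 lower in sustained dermis, and 1 and 4 in neonatal dermis. Their medians were -0.9 and -0.17, beside 0.09 and -0.13 for the named genes and 0.42 and 0.18 for all probe sets. Called in all were 47.1% in sustained and 29.4% in neonatal dermis, where 37.3% and 51.7% of the named genes were called. The endothelin ligands were among the risen ones. Edn3 averaged 6.22 in neonatal, 6.66 in transient, 6.6 in sustained and 4.7 in telogen dermis (1.52 ± 0.37 in neonatal, adjusted p = 0.0236; 1.9 ± 0.37 in sustained, adjusted p = 0.0119). Edn1 averaged 5.5 in sustained and 1.49 in telogen dermis (4.01 ± 0.86, adjusted p = 0.0182). In epidermis Edn1 rose by 1.75 ± 0.28 in transient and 1.62 ± 0.28 in sustained (adjusted p = 0.0272 and 0.0267) and Edn2 by 2.08 ± 0.26 and 1.93 ± 0.26 (adjusted p = 0.0113 and 0.0118). The falls in dermis were of prostaglandin genes and enzymes that clear transmitters: in sustained dermis Ptges, a prostaglandin E synthase (-2.06 ± 0.33), Hpgd, which degrades prostaglandins (-2.58 ± 0.44), Bche, a cholinesterase (-2.62 ± 0.44), and Maob, a monoamine oxidase (-2.74 ± 0.36, adjusted p = 0.0023). Ptgs2, the inducible cyclooxygenase, fell by 1.88 ± 0.3 in sustained epidermis (adjusted p = 0.0215).

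Among the 15 named other channels and pores are 8 gap junction genes. Gjb2 averaged 11.03 in transient, 10.28 in sustained and 6.11 in telogen epidermis (4.92 ± 0.37 and 4.17 ± 0.37, adjusted p = 0.00105 and 0.00219), and Gjb6 8.3, 9.03 and 6.18 (2.12 ± 0.31 and 2.85 ± 0.31, adjusted p = 0.0203 and 0.00548). Of the 15 genes 3 were higher and none lower in transient (20%, the third Gja1), 2 higher and none lower in sustained (13.3%), and 3 higher and 4 lower in neonatal epidermis (46.7%), beside 3.79%, 6.27% and 29.1% of the named genes. In neonatal epidermis the higher ones were Gja5, Gjb2 and Gjc1, and Gjb5 was among the lower. In sustained dermis 3 were higher and 2 lower (33.3%), Gjb2 and Gjb6 among the higher, where the keratinocyte genes were higher too. Of 12 pumps and exchangers 2 were higher and none lower in sustained dermis (16.7%), and 2 and 4 in neonatal dermis (50%). Of 27 genes of coupling and second messengers 6 were higher and 6 lower in sustained (44.4%), and 7 and 9 in neonatal dermis (59.3%). One of them, Rgs2, a brake on receptor coupling, was the only list gene called in transient dermis (1.83 ± 0.31, adjusted p = 0.0388). Of 15 scaffolds and auxiliaries 2 were higher and 4 lower in sustained (40%), and 2 and 6 in neonatal dermis (53.3%). These shares stand beside 37.3% of the named genes in sustained and 51.7% in neonatal dermis, and no difference from them was tested.

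Promoters are shown for Aqp1, the risen gene of sustained dermis with the smallest adjusted p, and for the 2 members that rose there and hold a TCF/LEF motif, since beta-catenin acts through TCF/LEF factors in the cells in which it is activated. The sequences are the 250 bases before the gene start in RefSeq, build GRCm38.p6, 5′ to 3′ on the gene's strand. Capitals mark the motif, searched on both strands. Its spellings were CTTTGAA (with the last base also T, as CTTTGAT), and with the sixth base T also CTTTGTT (or with a final A, CTTTGTA). Aqp1 lies at chr6:55336049-55336298 (+), Cacna1c at chr6:119196410-119196659 (-) and Cacnb3 at chr15:98634517-98634766 (+).
Aqp1: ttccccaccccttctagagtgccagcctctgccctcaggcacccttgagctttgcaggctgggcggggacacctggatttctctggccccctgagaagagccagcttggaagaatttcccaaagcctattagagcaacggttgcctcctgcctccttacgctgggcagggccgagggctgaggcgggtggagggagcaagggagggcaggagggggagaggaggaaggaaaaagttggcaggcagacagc
Cacna1c: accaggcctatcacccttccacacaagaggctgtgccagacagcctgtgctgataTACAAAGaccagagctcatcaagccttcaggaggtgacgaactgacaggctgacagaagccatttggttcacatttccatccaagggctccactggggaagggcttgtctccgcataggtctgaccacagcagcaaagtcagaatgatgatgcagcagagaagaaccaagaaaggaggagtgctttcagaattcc
Cacnb3: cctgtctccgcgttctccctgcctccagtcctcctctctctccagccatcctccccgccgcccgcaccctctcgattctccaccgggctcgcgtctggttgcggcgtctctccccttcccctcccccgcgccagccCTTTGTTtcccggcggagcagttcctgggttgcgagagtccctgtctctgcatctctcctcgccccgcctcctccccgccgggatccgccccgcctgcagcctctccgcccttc
The window of Aqp1 holds no match, that of Cacna1c 1 match on the opposite strand at -195 from the start, and that of Cacnb3 1 match on the gene strand at -114. RefSeq lists 3 windows for Cacna1c and 2 for Cacnb3, of which 1 each is printed. Of the 73 members 58 had a promoter in the table, and 13 of them (22.4%) held a match, against 14.8% of all 32851 windows and 16.8% of all genes counted over any of their windows. Among members called in sustained dermis 2 of 9 that rose and 3 of 10 that fell held one. A match is a description of letters, not a site.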

How the data were processed

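RNA of 24 sorted samples was measured on Affymetrix arrays. The deposited series table holds the authors' log2 values. After undoing the log, every array had a mean of 100.0 once 2% was trimmed at each end. RMA and MAS5 are named per the submitters' processing notes, with no role. The authors' deposited lists of regulated probe sets give a fold and its direction, and gene symbols were taken from them. From the log2 values, limma 3.58.1 (R 4.3.3) was fitted with a mean per group over the 12 arrays of a sort, or all 24 arrays for dermis minus epidermis and the interactions, with Benjamini-Hochberg adjustment over 45037 probe sets (64 control probe sets left out). Calls needed an adjusted p under 0.05. A gene was read from its probe set with the highest mean over all arrays, which left 106 probe sets of the members to 73. The code was tested on simulated data.

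Named with every array were, in each comparison, up to 8 called members a direction with the largest differences and no overlap, up to 8 called members of each interaction, up to 3 uncalled members with a difference of at least 2, and the largest of each direction in a family; others are given by counts or a difference, and array values of any further member were added after they were seen. Members and lists were chosen with earlier results of these data known. Labels number the mouse, and 11 pairs of dermis and epidermis come from the same mouse: their deviations from the group means correlated by -0.05 to 0.15, median 0.02. The fits over both sorts had no block for the mouse. Arrays report relative levels, and their number limits the precision. The values of 1 member and of 1 marker gene are not reported here.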

Additional observations from a re-analysis of the deposited data

Results flagged for a closer look

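The following members were picked out because the difference from telogen itself differed between dermis and epidermis in the interaction test (limma, adjusted p under 0.05). The sign is dermis minus epidermis, in log2 units. For neonatal skin 7 interactions were negative: Kcnj8 -7.95, Scn7a -6.06, P2rx7 -3.96, Cacna2d3 -3.64, Trpm1 -3.07, Cacna1a -2.3 and Grina -1.11. The 8 positive ones were Itpr2 1.7, Ptger4 2.43, Aqp1 3, Ednra 3.12, Ryr3 3.38, Kcnn2 3.52, Cacna1c 3.53 and Chrna5 10.05, the last from levels near the array floor. For sustained skin 7 were negative: Kcnj8 -6.83, Cacna2d3 -5.05, Kcnk2 -3.88, Scnn1b -3.55, P2ry14 -3.32, Kcne4 -2.68 and Clic4 -1.28. Ednra 2.91, Ednrb 3.81, Aqp1 4.59 and Adrbk2 7.06 were positive.

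Single arrays decided some of these. Leaving out 1 of the 12 arrays lost the call of Ryr3 in 10 of 12 cases (2.97 to 3.59), of Trpm1 in 5 (-3.1 to -2.62), of Cacna1c in 3 (3.09 to 3.29; epidermis neonatal replicate 4, telogen replicates 2 and 4), of Scnn1b in 9 (-3.68 to -3.26) and of P2ry14 in 10 (-3.53 to -2.76). The other probe set of Ryr3, of weak signal, was also called for neonatal skin (7.59, limma adjusted p = 0.00276). The calls of Chrna5, Kcnj8, Scn7a, P2rx7, Cacna2d3 and Kcnn2 for neonatal skin, and of Adrbk2, Kcnj8, Cacna2d3, Aqp1, Kcnk2 and Ednrb for sustained skin, were kept with each array left out. No such check is given for the remaining members of the 2 lists. For neonatal skin the other probe sets of Cacna1a and Itpr2 pointed the same way but were not called (limma adjusted p = 0.16 to 0.614 and 0.104 to 0.173). Those of Scn7a, P2rx7 and Ednra were called in the same direction.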

How the results depend on the processing

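Counts of called members are given as neonatal, transient and sustained against telogen dermis, sustained against transient dermis, then neonatal, transient and sustained against telogen epidermis. No value changed its sign. Equal replicate numbers within a sort are different mice; with the replicate block the counts were 19, 0, 8 and 0 in dermis and 0 and 0 in transient and sustained epidermis, where 23, 13, 20 and 23 members had an unadjusted p under 0.05 in limma for the 4 counts of 0. From the 6 arrays of a comparison alone, transient dermis, sustained against transient dermis and transient epidermis gave 0 (21, 21 and 20 members at an unadjusted p under 0.05) and sustained epidermis 2. With a trended, robust variance prior transient dermis gave 11, sustained against transient dermis 9, the epidermal comparisons 18, 7 and 12, and the sustained interaction 18. Without dim probe sets transient dermis gave 7, transient epidermis 3 and sustained epidermis 10. Transient dermis gave 1 call (0 higher, 1 lower) with quantile normalization and 0 higher and 3 lower with centring. Sustained against transient dermis gave 1 higher and 2 lower with quantile normalization and 2 calls with centring, and transient epidermis 2 with centring. Leaving out 1 array gave 25 to 28, 1 to 4, 12 to 20 and 0 to 6 in dermis and 6 to 10, 0 to 1 and 0 to 3 in epidermis, 45 to 47 between the sorts, and 8 to 15 and 7 to 13 for the neonatal and sustained interactions. The lowest counts came without sustained replicate 2 or 5 (12, sustained dermis), without sustained replicate 2 (0, against transient dermis), without epidermal neonatal replicate 3 (8) or sustained replicate 2 (7) for the interactions, and without telogen or sustained replicate 2 (0, sustained epidermis; 21 and 18 members at an unadjusted p under 0.05). With the mouse as a block the fits over both sorts gave 45, 15 and 11 calls, as without it. Leaving out the neonatal arrays, an alternative chosen after seeing the data, gave 45 calls between the sorts, 42 of them shared. Of 1701 values of named members under the alternatives, 1439 kept their side of the threshold, 237 lost a call and 25 gained one. Levels near the floor limit the size of differences.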
